A study of Mus musculus with 95 samples.

Results

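Kidneys of untreated SNF1 mice were compared between week 12 and week 8 of the study, 10 kidneys at each time, 20 of the 95 kidneys in the series. They were chosen by their labels alone, as the arrays titled as normal at those weeks. SNF1 mice are the first-generation hybrids of SWR and NZB mice, females of which develop lupus-like kidney disease with age. The mice received no agent, and served as age-matched controls of mice given pristane, a hydrocarbon oil injected into the abdomen at 9 weeks of age. If the weeks count from that injection, the 2 groups were 17 and 21 weeks old. Whole kidneys were used, with all their cell types and whatever adjoining tissue came with them, and fewer cells of a type cannot be told apart from less RNA per cell. RNA levels come from a mouse gene array, the Affymetrix HT MG-430 PM, whose short probes are summed into probe sets. Pristane-treated SNF1 kidneys of the same weeks, 8 at each, and untreated kidneys of week 4 (9) and week 14 (5) are used for comparison. The labels give each array a number from 1 to 10 in its group and do not say that each is a separate mouse, so p-values measure the spread between these samples.

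In this strain the immune system makes antibodies against the cell nucleus, and immune complexes settle in the glomeruli, where they recruit macrophages and lymphocytes. Interferons, proteins that alert cells to infection, switch on a shared set of genes in such kidneys. The kidney also keeps its own circadian clock, in which the factors CLOCK, NPAS2 and ARNTL drive genes that feed back to silence them, and the clock sets daily rhythms of sodium handling. The hour at which the kidneys were collected is not given in the sources used here.

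No gene passed an adjusted p below 0.05 between week 12 and week 8. The test was limma's moderated test with Benjamini-Hochberg adjustment over 45037 probe sets, and it called 0% of the 17227 genes, each represented by its brightest probe set. The smallest adjusted p was 0.727 with all 20 kidneys and 0.4 without mouse 10 of week 12, whose kidney stood apart from the others as described below. At an unadjusted p under 0.05, limma counted 340 genes higher (1.97%) and 889 lower (5.16%) at week 12. Without mouse 10 these were 257 (1.49%) and 1382 (8.02%). Without mouse 2 of week 8, the other kidney that stood apart, they were 714 (4.14%) and 1913 (11.1%), and the smallest adjusted p was 0.0666. With each of the 20 kidneys left out in turn, the share of all genes at that p ran from 1.22% to 4.14% higher and from 3.3% to 11.1% lower. Values are on the log2 scale of the RMA normalization, so a difference of 1 is 2-fold. The median gene differed by -0.012, with a median standard error of 0.0939. By their means 39.6% of genes were higher and 54.6% lower, and 5.74% did not differ at all, most of them at the floor of the scale in every kidney. For 98.1% of genes the 95% interval of the difference lay within 2-fold, and for 90.5% within 1.5-fold. For 321 genes the interval reached a 2-fold difference. With all kidneys 10 genes differed by over 2-fold in the means, 8 higher and 2 lower, and without mouse 10 these were 19, 7 higher and 12 lower. None of them passed the adjusted test in either fit.

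**Figure D1:**
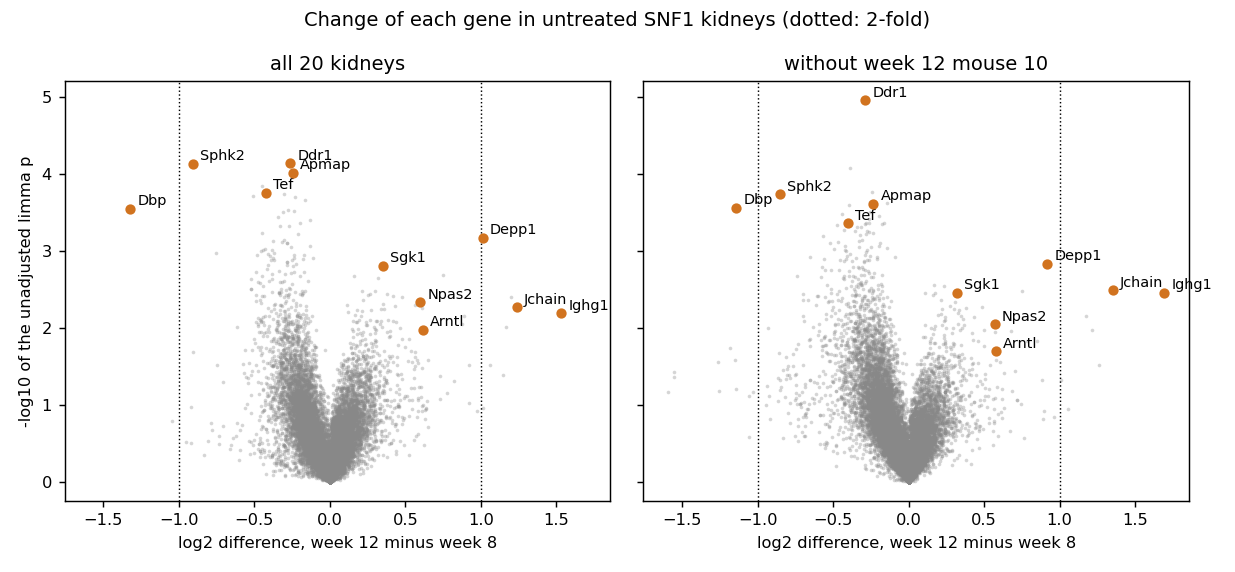
The log2 difference of each of 17227 genes (x axis, week 12 minus week 8) is plotted against −log10 of its unadjusted limma p (y axis), with all 20 kidneys on the left and without week 12 mouse 10 on the right. Dotted lines mark 2-fold, and the labelled genes are in orange. Dbp and Sphk2 lie farthest to the left among the genes with the lowest p, and among the labelled genes Ighg1 lies farthest to the right.

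Several genes of the circadian clock were among those with the lowest p. Of 17 clock genes measured, 6 were lower and 2 higher at week 12 at an unadjusted p under 0.05, against 5.16% and 1.97% of all genes, and the counts were 6 and 2 without mouse 10. With any of the 20 kidneys left out, 6 or 7 were lower and 2 higher. None passed the adjusted test. Their median difference was -0.14, against -0.012 for all genes, and from -0.19 to -0.11 over those leave-outs. Dbp, Tef and Hlf encode PAR bZIP factors, which are output genes of the clock. Per3 and Cry2 belong to the Period and Cryptochrome repressors, and Npas2 and Arntl to the activators. To show the elements known to tie clock genes together, 3 promoters from RefSeq on GRCm38.p6 are printed here, each running from 250 bases before to 50 after a start site. They were picked because each holds 1 of the elements. Capitals mark the E-box CACGTG bound by CLOCK, NPAS2 and ARNTL in Tef, the D-box TTATGTAA bound by PAR bZIP factors in Per3, and the core TAGGTCA bound by ROR and REV-ERB receptors in Arntl.
Tef, chr15:81802423-81802722, plus strand: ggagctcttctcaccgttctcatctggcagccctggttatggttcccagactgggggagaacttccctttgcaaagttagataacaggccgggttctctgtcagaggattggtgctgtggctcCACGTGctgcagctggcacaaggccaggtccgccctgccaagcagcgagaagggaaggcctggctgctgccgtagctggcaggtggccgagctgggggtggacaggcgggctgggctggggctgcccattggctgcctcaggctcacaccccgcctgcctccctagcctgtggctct
Per3, chr4:151044616-151044915, minus strand: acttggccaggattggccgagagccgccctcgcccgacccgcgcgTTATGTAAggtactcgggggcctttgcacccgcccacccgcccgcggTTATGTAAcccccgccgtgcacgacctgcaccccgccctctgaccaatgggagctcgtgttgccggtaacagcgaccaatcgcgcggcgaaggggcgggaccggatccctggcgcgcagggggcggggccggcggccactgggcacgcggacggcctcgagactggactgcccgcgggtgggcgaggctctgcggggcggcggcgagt
Arntl, chr7:113207261-113207560, plus strand: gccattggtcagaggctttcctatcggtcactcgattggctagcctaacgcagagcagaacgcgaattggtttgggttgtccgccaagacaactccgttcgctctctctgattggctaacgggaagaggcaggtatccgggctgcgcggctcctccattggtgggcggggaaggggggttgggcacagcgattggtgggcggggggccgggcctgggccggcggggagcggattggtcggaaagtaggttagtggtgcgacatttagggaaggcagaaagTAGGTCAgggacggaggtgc
The promoter table holds 15 of the 17 measured clock genes. Searched on both strands, the E-box lay in the window of 5 of them, the D-box in 1 (Per3, with 2 copies) and the ROR core in 2. Besides Tef, the genes with an E-box were Per1, Cry1, Ciart and Bhlhe41. The windows of Dbp, Hlf, Cry2, Nr1d2 and Npas2 held none of the 3 elements, so the letters do not mark out the clock genes with the lowest p. Among all 32851 promoter windows of this length, 7.15% held the E-box, 0.938% the D-box and 2.61% the ROR core. A clock gene was counted if any of its start-site windows matched, while these shares are per single window, so they are not on the same scale. These are matches of letters, not measured binding sites, and no match says only that the letters are not in the window.

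Dbp had a lowest, median and highest log2 level of 6.49, 6.75 and 7.90 at week 8 and 4.07, 5.89 and 6.61 at week 12. All but 1 of the week 12 kidneys lay below every week 8 kidney, and mouse 10 was the lowest. The difference was -1.32 ± 0.30 (SE, n = 10 and 10), or 2.50-fold lower, with an adjusted p of 0.754. Without mouse 10 it was -1.14 ± 0.25 with an adjusted p of 0.571. Tef ran from 10.44 to 11.03 at week 8 around a median of 10.72, and from 10.02 to 10.65 around 10.25 at week 12. Of the week 12 kidneys, 7 lay below the whole week 8 range. The difference was -0.42 ± 0.09 with an adjusted p of 0.754. Hlf was lower by a similar amount, -0.43 ± 0.11, again with 7 of 10 kidneys below all of week 8. Its second probe set differed by -0.15.

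Among the repressors, Per3 had levels of 8.58, 9.06 and 9.44 (lowest, median, highest) at week 8 and 7.90, 8.70 and 9.07 at week 12, a difference of -0.44 ± 0.16. Its groups overlapped, with 4 week 12 kidneys below the week 8 range. Of its 4 dimmer probe sets, 1 differed by -0.62 and 1 by -0.45, while the 2 dimmest differed by under 0.1. Cry2 differed by -0.47 ± 0.14, and 5 kidneys lay below the week 8 range. Nr1d2, which encodes the repressor REV-ERB beta, differed by -0.23 ± 0.073. Per2 differed by -0.41 ± 0.27, and Per1 by 0.062 ± 0.18 (-0.05 ± 0.15 without mouse 10), and neither had an unadjusted p under 0.05. The activators Npas2 and Arntl lay the other way.

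Npas2 had levels of 6.21, 6.64 and 7.37 at week 8 and 6.93, 7.25 and 8.09 at week 12, and was higher by 0.60 ± 0.19 with an adjusted p of 0.754. All week 12 kidneys lay above the week 8 median, yet only 4 exceeded all of week 8. Arntl ran from 4.23 to 6.17 at week 8 and from 5.51 to 6.44 at week 12, a difference of 0.62 ± 0.22. Clock itself differed by 0.21 ± 0.12. The adjusted p was 0.754 for Hlf, Per3, Cry2, Nr1d2 and Arntl too, since the adjustment gives many genes with neighbouring p-values the same result. With all 11 groups of the series in 1 fit, which estimates the spread from every kidney, Dbp passed at an adjusted p of 0.00175. The chaperone gene Hspa8 passed in that fit through a dimmer probe set, which differed by 1.11 (adjusted p = 0.0437), while its brightest differed by 0.22 ± 0.067 with 6 of 10 kidneys above all of week 8.

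**Figure D2:**
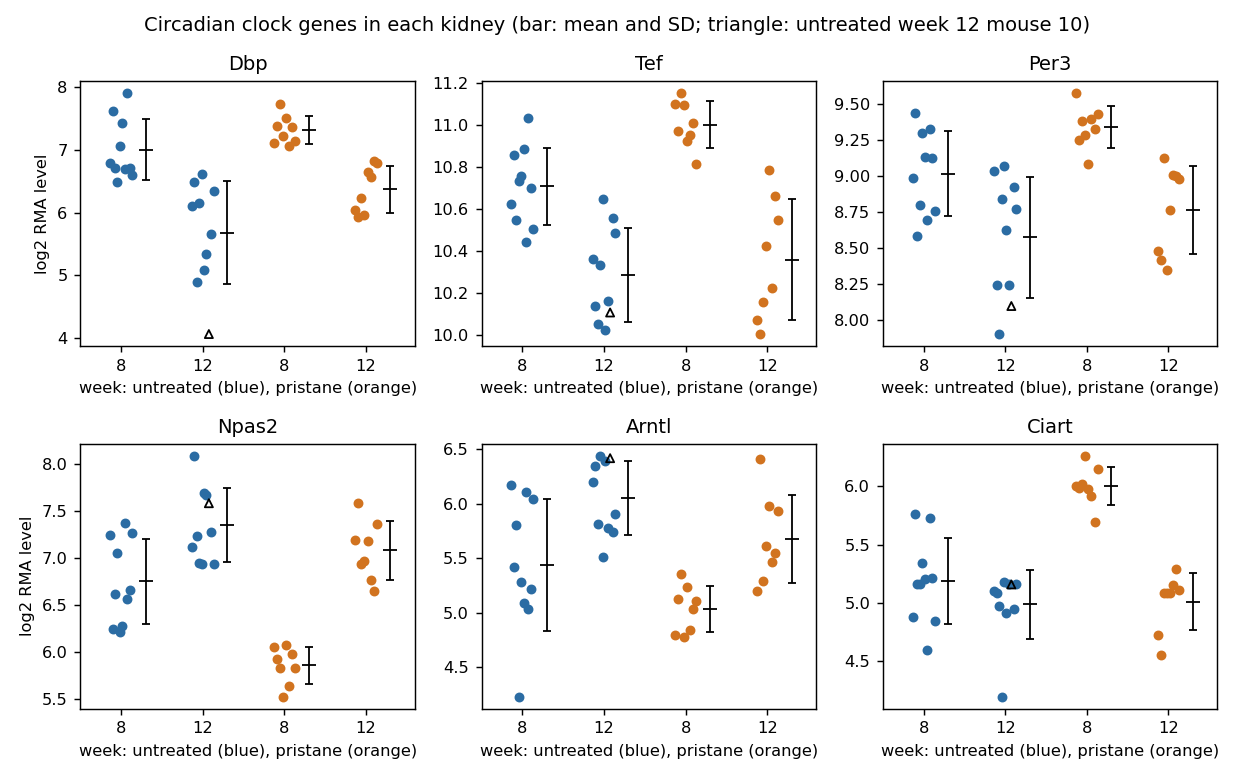
Log2 RMA levels (y axis) of Dbp, Tef, Per3, Npas2, Arntl and Ciart in each untreated (blue) and pristane (orange) kidney of weeks 8 and 12 (x axis), with the mean and SD beside each group and untreated week 12 mouse 10 as a triangle. Dbp, Tef and Per3 lie lower and Npas2 and Arntl higher at week 12 in both treatments, while Ciart separates the weeks only among the pristane kidneys.

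The pristane kidneys, which share no array with the untreated ones, were tested in the same way. Of all genes 0.186% passed there between weeks 8 and 12, 0.0755% higher and 0.11% lower. Clock genes gave 1 of 17 higher and 3 lower at an adjusted p below 0.05. Npas2 rose by 1.22 ± 0.13 (adjusted p = 0.00171, n = 8 and 8), and Dbp (-0.94 ± 0.15, adjusted p = 0.0286), Tef (-0.64 ± 0.11, adjusted p = 0.0330) and Ciart, which encodes a repressor of CLOCK and ARNTL (-0.99 ± 0.10, adjusted p = 0.00171), fell. Arntl differed there by 0.65 ± 0.16 (adjusted p = 0.113) and Per3 by -0.58 ± 0.12 (adjusted p = 0.0711). The direction was the same in untreated and pristane kidneys for 15 of 17 clock genes, which were singled out after their untreated values were seen. Across all genes, which are not independent of each other, the 2 sets of differences correlated at r = 0.350 with mouse 10 and 0.117 without it. Their rank correlations were 0.415 and 0.290. The share of all genes with the same direction in both treatments is not given here, so the count of clock genes cannot be read as particular to the clock. Ciart differed by only -0.20 ± 0.15 in untreated kidneys. The difference between its changes under the 2 treatments, -0.79 ± 0.19, did not pass (adjusted p = 1).

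Over the untreated course of weeks 0, 2, 4, 8, 12 and 14 (7, 10, 9, 10, 10 and 5 kidneys), the median level of Dbp was 4.65, 7.07, 7.33, 6.75, 5.89 and 7.19 in that order. Weeks 0 and 12 were the low points, and the medians had no steady direction. The mean at week 14 was 1.46 above that at week 12, and week 8 differed from week 4 by -0.24, and neither passed (adjusted p = 0.288 and 0.723). Those comparisons share the week 12 or the week 8 kidneys with the main one. Tef had its low points at the same weeks, with medians of 10.05, 10.82, 10.85, 10.72, 10.25 and 10.54.

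Sphk2, a kinase that makes sphingosine-1-phosphate, led the genes that were lower at week 12 besides Dbp. Its levels were 7.66, 7.92 and 8.58 (lowest, median, highest) at week 8 and 6.49, 7.14 and 7.93 at week 12. As with Dbp, 9 of 10 week 12 kidneys lay below every week 8 kidney. The difference was -0.91 ± 0.18 (adjusted p = 0.727), and -0.85 ± 0.18 without mouse 10, while a dimmer probe set of the gene differed by -0.21. Sphk2 fell in the pristane kidneys too, by 0.69 ± 0.12 (adjusted p = 0.0351), and its median at week 14 was back at 7.99. Ddr1, a receptor tyrosine kinase for collagen, had the lowest p of any named gene. It lay between 6.34 and 6.68 at week 8 and between 6.11 and 6.50 at week 12, with 8 kidneys below the week 8 range. Its difference was small, -0.26 ± 0.052, and -0.29 ± 0.048 without mouse 10 (adjusted p = 0.4). In pristane kidneys it differed by 0.045 ± 0.069.

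The other leading lower genes outside the clock differed by less than 1.5-fold. Zfp395, a zinc finger gene, ran from 6.41 to 7.14 at week 8 and from 5.82 to 6.59 at week 12, and differed by -0.51 ± 0.11 with 7 of 10 kidneys below the week 8 range. Pitpnc1, a phosphatidylinositol transfer protein gene, ran from 8.19 to 8.91 and from 7.80 to 8.38, and differed by -0.45 ± 0.095 with 7 kidneys below. Its other, dimmer probe sets all differed by less, from -0.36 to 0.05. Fnip2 encodes a partner of folliculin, Apmap a membrane protein of fat cells, Spry4 an inhibitor of receptor tyrosine kinase signalling, and Cpeb1 a protein that binds messenger RNA tails. Their differences were -0.31 ± 0.066 for Fnip2, -0.24 ± 0.049 for Apmap, -0.23 ± 0.051 for Spry4 and -0.17 ± 0.036 for Cpeb1. Cpeb1 lay near the floor of the scale, at 2.39 or less in every week 12 kidney. Without mouse 10 the 10 lower genes of lowest p also held Anapc7, a subunit of the anaphase-promoting complex (-0.39 ± 0.076), Fcgrt, the neonatal Fc receptor (-0.26 ± 0.056), the kinase gene Dyrk2 (-0.14 ± 0.031), the scaffold gene Shank3 (-0.39 ± 0.087) and the GTPase gene Nras (-0.26 ± 0.058). Mouse 10 had the highest week 12 level of all 5. With fat and adrenal markers as covariates, which ranged widely as given below, Apmap differed by -0.23 and Dbp by -1.27.

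Depp1, a gene induced by FOXO factors on fasting, led the genes that were higher at week 12. Its levels were 5.60, 5.92 and 6.72 at week 8 and 5.91, 6.93 and 7.97 at week 12, and 6 of 10 week 12 kidneys exceeded every week 8 kidney. The difference was 1.01 ± 0.25, or 2.02-fold, with an adjusted p of 0.754, and its second probe set differed by 0.89. Week 8 had the lowest median of the 6 untreated times, against 7.97 at week 4 and 7.27 at week 14. From week 4 to week 8 it differed by -1.96 ± 0.39, which did not pass (adjusted p = 0.103). Pristane kidneys differed by -0.42 ± 0.28, and the difference between the treatments, -1.43 ± 0.38, did not pass (adjusted p = 1). Sgk1, the serum and glucocorticoid kinase that raises sodium uptake in the distal nephron, differed by 0.35 ± 0.095. It ran from 11.66 to 12.29 at week 8 and from 11.99 to 12.58 at week 12. It was the member with the lowest p among 14 glucocorticoid-responsive genes, whose median difference was 0.12 with all kidneys and -0.035 without mouse 10.

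Several of the higher genes lay near the floor of the scale at 2.21. Camp, the cathelicidin of neutrophils, differed by 0.21 ± 0.063 from a week 8 median of 2.27, and the vomeronasal receptor gene Vmn1r14 by 0.38 ± 0.11 from 2.21. Srrm4os differed by 0.75 ± 0.21, Ccdc73 by 0.34 ± 0.092, Insc, which orients the mitotic spindle, by 0.27 ± 0.081, and Asb11, a ubiquitin ligase adaptor, by 0.30 ± 0.088. Ndrg1, a stress-responsive gene at a median of 12.69, differed by 0.16 ± 0.045. The epithelial gene Sprr2k differed by 0.32 ± 0.091, and Sprr1a, of the same small proline-rich family, ran from 5.23 to 7.64 at week 8 and from 5.54 to 8.13 at week 12, a difference of 1.20 ± 0.37. Of 10 genes of that family, 7 were higher and 1 lower by their means, and 2 were higher at an unadjusted p under 0.05, against 1.97% of all genes. Their median was 0.045, and 0.017 without mouse 10. All 6 uroplakin genes, which coat the urothelium of the renal pelvis, were higher by their means, against 39.6% of all genes, and 3 of them at that p. Their median difference was 0.34 and 0.36 without mouse 10. With each kidney left out in turn the median ran from 0.26 to 0.40, and 2 to 4 genes were higher at that p. Upk2 differed by 0.47 ± 0.14 and Upk1b by 0.42 ± 0.14. The small proline-rich family and the uroplakins were gathered after their values were seen, and whether the kidneys held unequal amounts of renal pelvis was not tested.

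Plasma cells secrete antibody, and Jchain encodes the chain that joins IgM and IgA into polymers. Jchain had levels of 7.19, 8.67 and 10.07 (lowest, median, highest) at week 8 and 8.59, 9.95 and 11.82 at week 12. The groups overlapped, although 5 of 10 week 12 kidneys exceeded all of week 8. The difference was 1.24 ± 0.39, or 2.36-fold, with an adjusted p of 0.754. Without mouse 10, whose level was 8.87, it was 1.35 ± 0.40 (adjusted p = 0.571). Ighg1, the heavy chain of IgG1, stayed between 3.33 and 3.80 in all week 8 kidneys. In several of them, as in every week 0 kidney, the level was the identical 3.55, so it may be a background level there. At week 12 Ighg1 ran from 3.55 through a median of 4.60 to 8.53, and 7 kidneys were above the week 8 range. Its difference was 1.53 ± 0.50 (adjusted p = 0.754).

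Of 10 plasma cell and immunoglobulin genes measured, 8 were higher by their means, against 39.6% of all genes, and 2 were higher at an unadjusted p under 0.05, against 1.97% of all genes, with 2 without mouse 10 and 2 without mouse 2 of week 8. The list's median difference was 0.25, against -0.012 for all genes. Mouse 2 of week 12, which had the highest mean of the list, carried much of it, and without that kidney the median was 0.082, with 7 of 10 higher by their means and 3 at that p, against 3.12% of all genes. Ighm, the IgM heavy chain, differed by 0.38 ± 0.52 in its brightest probe set, and its 6 other probe sets by 0.28 to 1.11. Xbp1, the factor that builds the secretory apparatus, differed by 0.32 ± 0.16. Prdm1, which commits B cells to the plasma cell fate, differed by -0.085 ± 0.16. Of 17 immunoglobulin genes of the array, gathered after their values were seen, 15 were higher by their means and the other 2 lay at the floor in all 20 kidneys, and 5 were higher at an unadjusted p under 0.05. Their median was 0.29, and 0.15 without mouse 2 of week 12, where 4 were higher at that p. Near-identical immunoglobulin segments can share probes, so single members are uncertain.

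The median of Jchain was higher at each later week of the untreated course. It went from 5.43 through 7.20, 7.60, 8.67 and 9.95 to 11.02. Neighbouring weeks overlapped throughout, and the steps from week 4 to 8 (1.13 ± 0.34) and from week 12 to 14 (0.86 ± 0.51) did not pass (adjusted p = 0.338 and 0.576). Ighg1 had a median of 3.36 at week 4 and 5.28 at week 14. In pristane kidneys Jchain differed by 1.56 ± 0.41 (adjusted p = 0.129) between the same weeks, from a median of 9.99 to 11.85.

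**Figure D3:**
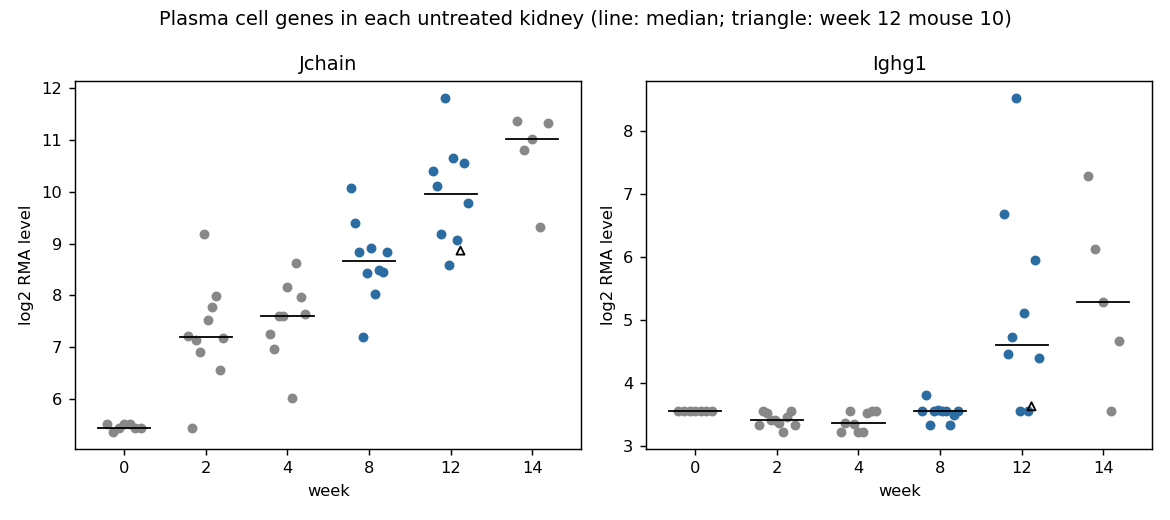
Log2 RMA levels (y axis) of Jchain and Ighg1 in each untreated kidney by week (x axis), with the median of each week as a line, weeks 8 and 12 in blue and week 12 mouse 10 as a triangle. Jchain medians step up from 5.43 to 11.02, and Ighg1 is spread out only from week 12 on.

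Genes of the interferon response varied widely between kidneys of the same week. The GTPases that interferon induces to attack intracellular microbes, 11 of them measured, were averaged in each kidney and set against the week 8 mean. At week 8 the lowest, median and highest kidneys lay at -1.18, -0.22 and 1.71, and at week 12 at -1.28, -0.87 and 2.97. The high week 8 kidneys were mice 3 and 9, at 1.71 and 1.47. At week 12 mouse 10 was the highest and mouse 2 next at 0.26, and the other 8 kidneys all lay below the week 8 median. The median difference of the genes was -0.46 with mouse 10 and -0.94 without it, and 0 and 5 of them were lower at an unadjusted p under 0.05, against 5.16% and 8.02% of all genes. Mouse 10 was singled out by its expression, so leaving it out must lower week 12 in these genes. Leaving out either high kidney of week 8 instead brought the median to -0.21 (mouse 3) or -0.26 (mouse 9). Without mouse 2 of week 8 the median was -0.58 and 0 were lower at that p. For 8 of 11 genes the interval with all kidneys reached a 2-fold difference.

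Irgm2, one of these GTPases, had levels of 7.33, 8.31 and 10.98 at week 8 and 6.74, 7.50 and 12.05 at week 12. Mouse 10 set the highest value, and the highest of the other 9 was 8.86. The difference was -0.73 ± 0.62 with mouse 10 and -1.19 ± 0.46 without (adjusted p = 0.768 and 0.626). Igtp, of the same family, differed by -0.73 ± 0.72 and -1.26 ± 0.53. Gbp2, a guanylate-binding protein, differed by -0.66 ± 0.67 and -1.15 ± 0.48. In pristane kidneys the same genes leaned the other way, with a median of 0.62 and 9 of 11 higher at an unadjusted p under 0.05, against 6.66% of all genes, though 0 passed the adjusted test.

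Medians of the other innate immune lists depended on which kidney was in the fit. Week 12 mouse 10 was the highest of its week in them, and each median was lower without it, while each was closer to 0 or above it without mouse 3 of week 8. MHC class II genes, by which antigen is presented to helper T cells, had a median difference of -0.39 and -0.80 with and without mouse 10 over 7 genes. Cd74, the invariant chain, ran from 9.95 to 12.82 at week 8 and from 9.83 to 13.28 at week 12, and differed by -0.50 ± 0.46 and -0.80 ± 0.36. MHC class I and antigen processing genes gave -0.29 and -0.52, complement genes -0.18 and -0.44, Fc gamma receptors -0.12 and -0.52, and macrophage and monocyte markers -0.16 and -0.54. Without mouse 3 of week 8 and with mouse 10, the medians were -0.18 for MHC class II, -0.18 for MHC class I, -0.093 for complement and -0.017 for macrophage and monocyte markers, and that of Fc gamma receptors turned to 0.063. Without mouse 9 of week 8, complement gave -0.096, Fc gamma receptors 0.015 and macrophage and monocyte markers -0.029, and without mouse 6 of week 12 complement gave -0.092. C1s1, a protease of the classical complement pathway, differed by -0.29 ± 0.32 and -0.54 ± 0.21. Mrc1, the macrophage mannose receptor, differed by -0.58 ± 0.42 and -0.86 ± 0.34. No member of any of these lists passed the adjusted test in either fit. Of 26 interferon-stimulated genes, 18 were lower by their means with mouse 10 and 25 without, against 54.6% and 60.2% of all genes. Their median was -0.12 and -0.25, and -0.044 without mouse 3 of week 8. B cell markers (0.078 and 0.024), T cell markers (0.11 and -0.054) and neutrophil markers (0.05 and 0.022) had medians closer to 0 in both fits, and that of B cell markers was 0 without mouse 2 of week 12.

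**Figure D4:**
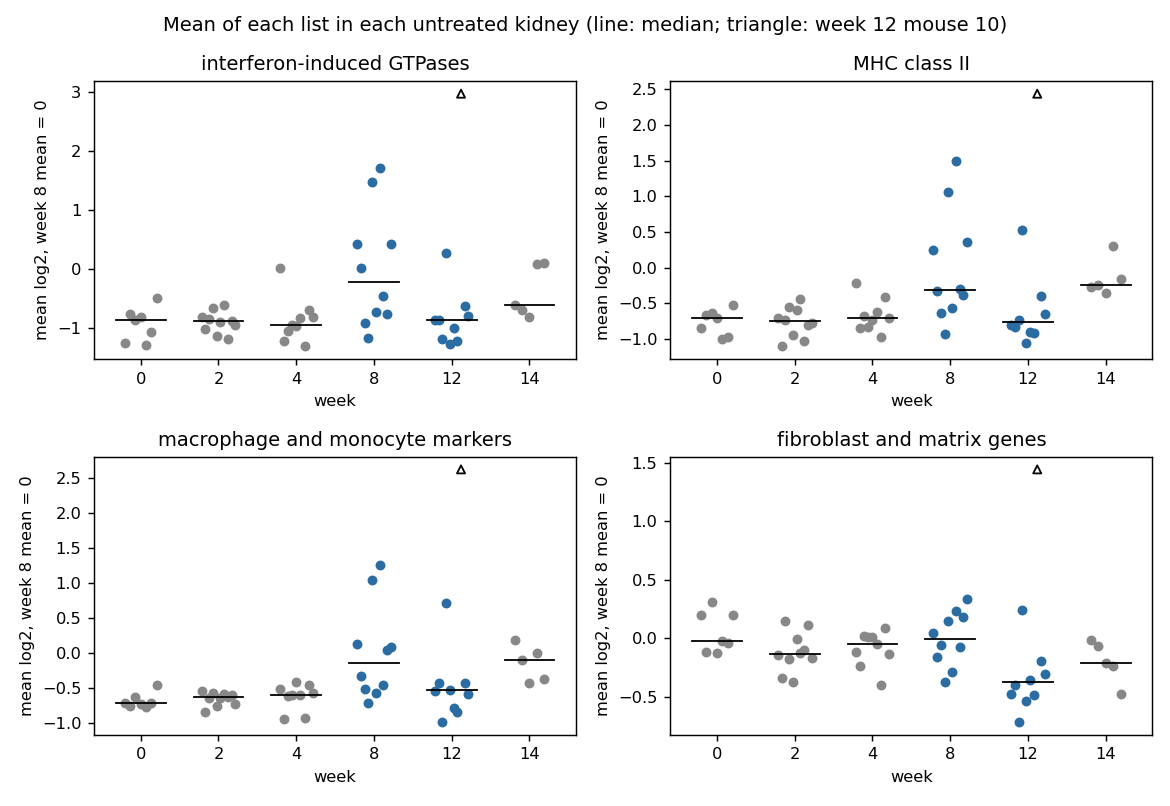
Mean log2 level of 4 gene lists in each untreated kidney, set to 0 at the week 8 mean (y axis), by week (x axis), with the median of each week as a line and week 12 mouse 10 as a triangle. The interferon-induced GTPases span -1.18 to 1.71 within week 8, and mouse 10 stands at 2.97, above all other untreated kidneys.

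Mouse 10 of week 12 is described here by its own values, without a test, since a single kidney has no replicate. The genes highest in it against the mean of the other 9 were BC023105 (7.59), the formyl peptide receptor Fpr2 (6.81), the acute phase gene Saa3 (6.55), the ubiquitin-like Ubd (6.54), the GTPases Gbp10 (6.29) and Tgtp1 (6.01), the protease inhibitor Serpina3g (6.18), the chemokine Cxcl9 (5.95), Acod1, which makes itaconate in macrophages (5.80), and Ms4a6d (5.57), all in log2 units. Acod1 reached 8.09 in it and at most 5.43 in the other 94 kidneys of the series, diseased ones included. Lcn2 and Havcr1, markers of tubular injury, lay at 9.83 and 6.72 in it and at most 6.80 and 4.92 in the other 9. Its mean over 12 tubular injury genes was 1.92, over matrix genes 1.44 and over cell cycle genes 1.17, relative to week 8. Its Jchain (8.87) and Ighg1 (3.62) lay below the week 12 medians.

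The genes lowest in mouse 10 were of a different kind. Bsg, a membrane glycoprotein gene of tubules, lay at 4.56 against a range of 8.05 to 9.70 in the other 94 kidneys. Vps41, a vesicle trafficking gene, lay at 5.50 against at least 8.98, although its second probe set lay at 7.04 there, close to the week 8 mean of 6.86. Ddt lay at 7.18 against at least 9.75. Ehmt2, a histone methyltransferase gene, lay at 3.18 and the polymerase subunit gene Polr2h at 3.93. The remaining ones were 2700046G09Rik, Pfn2, Prkcd, Akr1cl and Hsd3b1. Hsd3b1 is an adrenal marker that was also low in other kidneys. In all, 54 probe sets lay more than 1 log2 unit below, and 40 above, every other array in mouse 10, and at most 33 and 28 in any other array.

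Matrix genes, which encode collagens and their modifiers and mark fibrosis when high, leaned lower at week 12, and further so once mouse 10 was left out. Mouse 10 was singled out by its expression and had the highest mean of these genes (1.44), so leaving it out must lower week 12. The median difference over 22 matrix genes was -0.21 with it and -0.40 without it. At an unadjusted p under 0.05, 1 and 13 genes were lower, against 5.16% and 8.02% of all genes. None passed the adjusted test. Col15a1, a basement membrane collagen, had levels of 5.65, 6.32 and 6.89 at week 8 and 5.20, 5.68 and 6.59 in the 9 kidneys of week 12, and 8.08 in mouse 10. The difference was -0.35 ± 0.28 with mouse 10 and -0.58 ± 0.16 without (adjusted p = 0.571). Acta2, the smooth muscle actin of myofibroblasts, differed by -0.51 ± 0.15, Timp2, an inhibitor of matrix proteases, by -0.42 ± 0.12, Fn1 (fibronectin) by -0.46 ± 0.15 and Fbn1 (fibrillin) by -0.70 ± 0.23 without it. With mouse 10 and without mouse 2 of week 8 the median was -0.29 and 1 gene was lower at that p, against 11.1% of all genes. With each kidney left out in turn, the median ran from -0.40 (without mouse 10) to -0.15 (without mouse 9 of week 12). In those fits 0 to 13 matrix genes were lower at that p, with 0 without mouse 3 of week 8. In pristane kidneys the median was 0.52. Endothelial markers, all 12 lower by their means against 54.6% of all genes, had a median of -0.19 and -0.19. Of them 0 were lower at that p with all kidneys, against 5.16% of all genes, and 4 without mouse 10, against 8.02%. Without mouse 2 of week 8, which had the lowest endothelial mean of its week (-0.44), 6 were lower, against 11.1%. Podocyte markers had medians of -0.12 and -0.15.

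Of the 13 genes that the study follows as markers of innate sensing, inflammation and fibrosis, none passed in untreated kidneys, and since the study chose them on these arrays they are no independent evidence. Aim2, a sensor of cytosolic DNA, differed by 0.27 ± 0.11, from a week 8 range of 2.29 to 2.84 to a week 12 range of 2.65 to 3.58, all low on the scale. Sting1, the adaptor of cytosolic DNA sensing, differed by 0.082 ± 0.35 with mouse 10 and -0.23 ± 0.17 without, and Havcr1 by 0.50 ± 0.27 and 0.25 ± 0.11. Timp1 differed by 0.58 ± 0.48 and 0.10 ± 0.088, and mouse 10 stood at 8.02 against at most 3.51. Saa3 differed by 0.22 ± 0.74 and -0.43 ± 0.39, and S100a8, a calprotectin subunit of neutrophils and macrophages, by 0.059 ± 0.15 and -0.069 ± 0.087, so the sign of both turned when that kidney was left out.

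Kidney markers were high in every sample, so the label of the tissue was met by its markers. Kap, an androgen-regulated gene of the proximal tubule, lay between 13.94 and 14.29, and Miox, an inositol oxygenase of the same cells, between 13.11 and 13.44. Proximal tubule markers lay slightly lower at week 12, with a median of -0.13 over 18 genes and 6 lower and 0 higher at an unadjusted p under 0.05, against 5.16% and 1.97% of all genes. Slc6a19, the transporter of neutral amino acids, had levels of 8.48, 8.95 and 9.47 at week 8 and 8.05, 8.32 and 9.09 at week 12, and differed by -0.52 ± 0.15 (adjusted p = 0.754). Its groups overlapped. The water channel gene Aqp1 differed by -0.19 ± 0.071 and the organic anion transporter gene Slc22a8 by -0.20 ± 0.082. Among 18 amino acid breakdown enzymes, 7 were lower and 1 higher at that p (4 lower and 1 higher without mouse 10), with a median of -0.10. They included Gldc of the glycine cleavage system (-0.37 ± 0.12) and Hgd of tyrosine breakdown (-0.15 ± 0.049). Of 13 enzymes of sugar production and use, 3 were lower at that p, 2 without mouse 10 and 7 without mouse 2 of week 8. Pck1, which controls the making of glucose, differed by -0.40 ± 0.14 and Pcx, which feeds it from pyruvate, by -0.33 ± 0.10. Among 16 fatty acid oxidation enzymes 3 were lower (1 without mouse 2 of week 8), Cpt1a, the gate to the mitochondrion, by -0.39 ± 0.099. With each kidney left out in turn, 4 to 10 proximal tubule markers, 4 to 9 amino acid enzymes, 2 to 7 sugar enzymes and 1 to 5 fatty acid enzymes were lower at that p. Over those fits 569 to 1913 of all 17227 genes were lower at that p, 8.02% without mouse 10 and 11.1% without mouse 2 of week 8. Part of the range in these counts is thus shared by all genes. The highest counts came without mouse 3 of week 8 for proximal tubule markers, without mouse 1 of week 12 for amino acid enzymes, without mouse 2 of week 8 for sugar enzymes and without mouse 8 of week 12 for fatty acid enzymes, and the lowest came without any of several kidneys, or without mouse 6 of week 8 for proximal tubule markers. None of these genes passed the adjusted test.

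Most other lists differed little. Medians were -0.053 for 24 oxidative phosphorylation subunits, -0.0053 for 18 ribosomal proteins, -0.064 for 16 proteasome subunits, 0.015 for 7 markers of the thick ascending limb and -0.10 for 12 cholesterol synthesis genes. Without mouse 2 of week 8 the cholesterol median was -0.21 and that of oxidative phosphorylation -0.084, with 7 of its genes lower at an unadjusted p under 0.05, against 11.1% of all genes. Splicing and nuclear speckle genes had a median of -0.053, with 4 of 20 lower at an unadjusted p under 0.05, against 5.16% of all genes, among them the nuclear RNA Malat1 (-0.17 ± 0.067) and the splicing factor gene Rbm25 (-0.20 ± 0.06). Malat1 fell in the pristane kidneys, by 0.45 ± 0.055 (adjusted p = 0.00582). Over all 47 lists, with 581 of 647 distinct genes measured, no list held a gene that passed in either fit.

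Tissue beside the kidney was present in uneven amounts. Adrenal markers, 13 measured, split the kidneys into a low set up to -1.31 and a high set from 0.82 on the scale of the list mean, and 4 of 10 kidneys at week 8 and 4 of 10 at week 12 were in the high set. Cyp11b1, which makes corticosterone, ran from 2.21 to 8.55 at week 8 and from 2.21 to 8.20 at week 12. Fat cell markers ranged from -1.71 to 1.49 at week 8 and from -2.18 to 0.56 at week 12. Adipoq, the hormone adiponectin, differed by -1.05 ± 0.72 and spanned 3.29 to 10.51 over both weeks. With both list means as covariates, added after these values were seen, limma again called no gene. Mouse 10 was in the low adrenal set, with a fat mean of -1.54.

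**Figure D5:**
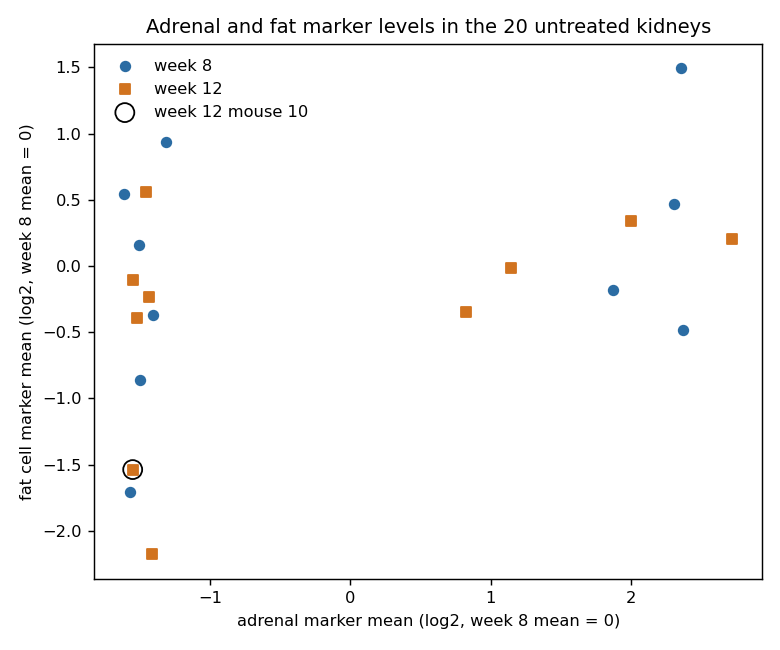
Mean log2 level of the adrenal markers (x axis) and of the fat cell markers (y axis) in each untreated kidney, both set to 0 at the week 8 mean, for week 8 (circles) and week 12 (squares), with week 12 mouse 10 ringed. Each week has 4 kidneys in the right-hand set, and fat marker means span -2.18 to 1.49.

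Whether untreated kidneys moved unlike pristane kidneys was tested as the difference of the 2 changes. Of all genes 0% passed, and 668 had an unadjusted p under 0.05 (3.88%). Asb11 (0.30 ± 0.088 untreated, -0.37 ± 0.13 pristane), Gpx6, a glutathione peroxidase (-0.26 ± 0.16 and -1.19 ± 0.14), Gucy1a2, a subunit of the nitric oxide receptor (-0.20 ± 0.13 and 0.71 ± 0.17), Eda2r, a death receptor of the tumour necrosis factor family (0.14 ± 0.14 and 0.84 ± 0.065), and the metalloprotease gene Adam12 (-0.31 ± 0.16 and 1.04 ± 0.29) had the lowest p. Eda2r and Gpx6 passed within the pristane kidneys (adjusted p = 0.000115 and 0.00384). Without mouse 10 no gene passed either. Sash3, an adaptor of lymphocytes, then had the lowest p, at -0.22 ± 0.11 untreated and 0.63 ± 0.11 pristane (adjusted p of the difference = 0.146). The interferon-induced GTPases had a median difference between treatments of 1.16 with mouse 10 and 1.63 without it. At an unadjusted p under 0.05, 1 of 11 was higher with all kidneys, against 2.72% of all genes, and 10 of 11 without mouse 10, against 6.86% of all genes. Mouse 10 was singled out by its expression and had the highest untreated mean of these genes (2.97). Leaving it out must therefore raise this difference, so the larger count is no independent result. A fit that weights each array by its scatter called 18 of 17227 genes past 2-fold, 17 with the more positive change under pristane. No other alternative called a gene for this difference. The 18 included the collagen genes Col8a1 (a difference of 1.86, adjusted p = 0.0325) and Col15a1 (1.35, adjusted p = 0.0379), the fibrillin gene Fbn1 (1.70, adjusted p = 0.0403) and the chemokine gene Cxcl10 (2.19, adjusted p = 0.0492), and Gpx6 was the 1 of the opposite direction. The cell cycle gene Ccna2, Gucy1a2 and Adam12 were also among them, so the called genes were not matrix genes alone.

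The median spread between kidneys was similar at both weeks apart from mouse 10. The median standard deviation over genes was 0.185 at week 8, 0.220 at week 12 and 0.196 without mouse 10. A standard deviation above 1 was found for 121, 231 and 72 genes. Fewer genes thus had such a wide spread at week 12 without mouse 10 than at week 8. Pairs of the 20 arrays correlated at 0.973 or more, and no 2 arrays were alike. Mouse 2 of week 8 also stood apart, with low endothelial, proteasome and cholesterol synthesis means. Leaving it out raised the probe sets with an unadjusted p under 0.05 from 2796 (6.21%) to 6017 (13.4%), and limma still called none.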

How the data were processed

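The deposited table holds log2 expression values that the authors made from 95 kidney arrays by Robust Multi-array Average (RMA), which corrects background, quantile-normalizes and summarizes probes; Partek is also named per the labels, and software versions are not given in the sources used here. All values have a floor of 2.21, reached by 18.6% of them, so differences of dim genes are understated. The number of arrays limits the precision. Of 45141 probe sets, 104 controls were left out. Names came from the platform annotation (28898 probe sets with 1 symbol, 551 with several and not named) and, for 346 further probe sets, from the symbol column of a supplementary table, a step added after values were seen.

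Differences were fitted with limma (version 3.58.1, R 4.3.3; lmFit and eBayes, two-sided) on the kidneys compared, with Benjamini-Hochberg adjustment over all probe sets. A call needed an adjusted p below 0.05, and over 2-fold for the counts of the closing section. For each gene the brightest of its probe sets on average across the series stood for it. The fit was tried on simulated data with independent noise in each probe set. Those data held no kidney that stood apart and no correlation between genes, so they do not cover these features of the real kidneys. Named genes were the 10 with the lowest p in each direction with and without mouse 10 (none passed), the 3 of lowest p per list in either fit, the 10 most extreme in mouse 10 each way, the 5 leading in the treatment difference, and those the study names. Named outside this rule, after their values were seen, were Adipoq, Arntl, Ciart, Clock, Col8a1, Cry2, Cyp11b1, Fbn1, Fn1, Ighm, Kap, Lcn2, Miox, Npas2, Nr1d2, Per1, Per2, Per3, Sprr1a, Upk1b and Upk2. Members and lists were chosen with earlier results of these data known. Alternatives were median centring, quantile normalization, a filter on dim probe sets, all groups in 1 fit, another prior, array weights, replicate numbers as a block, gene means, other thresholds and leaving out each kidney.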

Additional observations from a re-analysis of the deposited data

Results flagged for a closer look

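List means and the leading genes were checked within each week for a single kidney far from the rest, by Dixon's rule, in 152 groups of 10. Chance marks about 1 in 20 groups, and 33 values stood out, 20 of them in mouse 10 of week 12. All list means are log2 relative to the week 8 mean.

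Mouse 10 of week 12 was far above the other 9 kidneys in interferon-stimulated genes (1.45), interferon-induced GTPases (2.97), nucleic acid sensors (1.45), complement (2.25), Fc gamma receptors and signalling (2.75), chemokines and adhesion (2.44), MHC class I and processing (2.13), MHC class II (2.44), macrophage and monocyte markers (2.63), T and cytotoxic cell markers (1.40), fibroblast and matrix genes (1.44), tubular injury genes (1.92), acute phase genes (1.35), glucocorticoid-responsive genes (1.13), cell cycle genes (1.17) and genes the study names (1.97). It was far below them in distal convoluted tubule markers (-0.71) and amino acid breakdown enzymes (-0.49). Its levels of Shank3 (6.58) and Nras (8.62) were likewise high. These lists share genes and cells, so they are not separate observations.

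Mouse 2 of week 8 was far below its group in endothelial markers (-0.44), oxidative stress and metallothionein genes (-0.34), renin-angiotensin genes (-0.36), cholesterol synthesis genes (-0.97), cytosolic ribosomal proteins (-0.13) and proteasome subunits (-0.38). Its skeletal muscle mean (0.15) was far above. Mouse 2 of week 12 stood out in plasma cell and immunoglobulin genes, with a mean of 1.77 against 0.65 for the next kidney, and in Cpeb1 (2.39). Mouse 5 of week 12 stood out in skeletal muscle markers (0.36). At week 8, mouse 3 stood out by small amounts in Neurog3 (2.51) and Mbl1 (2.55), and mouse 8 in Ighg1 (3.80). What set these kidneys apart was not tested.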

How the results depend on the processing

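The count of genes past 2-fold at an adjusted p below 0.05 was 0 in every alternative, with and without mouse 10, except with all groups in 1 fit, where it was 2 (Dbp lower, Hspa8 higher by a dimmer probe set) and 1 (Dbp). An unnamed probe set also passed there (-1.13, adjusted p = 0.000524, and -1.02, adjusted p = 0.00590, without mouse 10). Leaving out each of the 20 kidneys gave counts from 0 to 0, with 1912 to 6017 probe sets at an unadjusted p under 0.05 and the lowest adjusted p, 0.0666, without mouse 2 of week 8. Quantile normalization brought 1 unnamed probe set of under 2-fold to an adjusted p of 0.0382. For the treatment difference the count was 0 except with array weights (18 genes). The cause of these shifts was not tested. Replicate numbers did not pair the samples, since same-numbered kidneys correlated at -0.687 to 0.356 (median -0.129, 2 of 10 above 0.1, 0 best with their own number), and the replicate block called 0 genes between the weeks and 0 for the treatment difference. Leaving out each kidney for each gene list, added after seeing the data, gave 0 list genes past the adjusted p.

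Of 94 genes followed through the alternatives, among them each but Sash3 whose difference between the weeks is given above, the direction turned for 7. Quantile normalization turned Mt2 (-0.0544 to 0.0261) and S100a8 (0.0592 to -0.0124). Array weights turned S100a8 (-0.11), Saa3 (0.22 to -0.32), Sting1 (0.0815 to -0.29) and Eda2r (0.14 to -0.0503), and gene means turned Laptm5 (-0.34 to 0.00884). With each kidney left out in turn, Mt2 ran from -0.22 to 0.0238, S100a8 from -0.0688 to 0.10, Saa3 from -0.43 to 0.56, Sting1 from -0.23 to 0.16 and Per1 from -0.0499 to 0.14; the lowest of each came without mouse 10 of week 12. The cause was not tested. With all groups in 1 fit, Srrm4os, Sphk2, Pitpnc1, Cpt1a and Dbp passed at any fold. An alternative keeping only gene names of the platform annotation and 1 with adrenal and fat markers as covariates, both chosen after seeing the data, called none.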
